A study of Mus musculus with 10 samples.

Results

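The 32 genes listed for cholesterol and fatty acid synthesis were examined in the prostates of 10 male TRAMP mice, and 31 of them were found by their platform annotation symbol among the 19938 genes with a probe set of their own. They comprise 17 genes of the sterol branch, 10 of the fatty acid branch, and 4 regulators or sterol carriers; the expression of Acat2, also listed under the sterol branch, was not analysed here. Where a gene had several probe sets, the brightest one on average was used. In TRAMP mice a promoter of probasin, a secretory gene, drives a viral T antigen in the prostate epithelium and prostate tumours develop; mice of both groups carried it. Treatment began at an age of 8 to 9 weeks, when 5 mice were kept on plain tap water, and 5 drank tap water holding 250 µg/ml of nicotine, given as nicotine tartrate. Total RNA of each prostate was put on 1 whole-transcript array, and the values are log2 units of hybridisation signal. The number of arrays, 5 a group, limits the precision, and because a prostate is a mixture of cells, fewer cells of a type and less RNA per cell cannot be told apart.

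Cells build cholesterol and fatty acids from acetyl-CoA by separate routes. The sterol route runs through mevalonate and isoprenoid diphosphates to squalene, lanosterol and cholesterol, while the fatty acid route makes palmitate by way of malonyl-CoA and then elongates and desaturates it. Both are switched on by the SREBP transcription factors, membrane-bound proteins that are released when sterols are low: SREBP2 (Srebf2) acts mainly on sterol genes and SREBP1 (Srebf1) mainly on fatty acid genes, and INSIG proteins hold them back. Prostate epithelium is rich in these enzymes, and androgens are known to raise them.

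SREBPs bind next to the factor NF-Y, so the 250 bases before the annotated start of each gene were searched, on both strands, for CCAAT (the NF-Y box), TCACNCCAC (a sterol regulatory element, N being any base), CACGTG (an E-box) and GGGCGG (a GC box). RefSeq promoters of build GRCm38.p6 were matched for 25 of the 32 listed genes, Acat2 among them; Fdps, Fdft1, Sqle, Scd1, Scd2, Fads1 and Stard4 had no entry. The CCAAT letters were present before at least 1 start of 14 of 15 sterol genes and of 3 of 7 fatty acid genes, against 37.5% of all 27025 genes with a promoter entry and 39.0% of the tested genes with one. GGGCGG gave the same counts, 14 of 15 and 3 of 7, against 59.9% of the tested genes. The strict element TCACNCCAC was found for Hmgcs1 alone, and in 1.25% of the tested genes; known SREBP sites often depart from these letters. CACGTG was found for 3 of 15 sterol and 1 of 7 fatty acid genes, against 9.37%. Such a match is a description of letters and no evidence of binding.

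The promoters below are those of genes on which the results turn, Elovl6 being shown as a fatty acid gene with none of the 4 motifs in this window. Capitals mark CCAAT or its complement ATTGG and, in Hmgcs1, TCACCCCAC; in Fasn, a CCAAT and an ATTGG overlap. Each runs 5′ to 3′ on the strand of the gene.
Hmgcs1, chr13:119690101-119690350, + strand: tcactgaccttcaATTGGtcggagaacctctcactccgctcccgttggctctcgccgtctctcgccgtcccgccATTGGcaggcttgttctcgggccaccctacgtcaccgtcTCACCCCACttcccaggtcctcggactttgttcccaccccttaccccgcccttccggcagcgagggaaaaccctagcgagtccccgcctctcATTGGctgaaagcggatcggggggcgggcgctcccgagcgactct
Mvd, chr8:122443423-122443672, - strand: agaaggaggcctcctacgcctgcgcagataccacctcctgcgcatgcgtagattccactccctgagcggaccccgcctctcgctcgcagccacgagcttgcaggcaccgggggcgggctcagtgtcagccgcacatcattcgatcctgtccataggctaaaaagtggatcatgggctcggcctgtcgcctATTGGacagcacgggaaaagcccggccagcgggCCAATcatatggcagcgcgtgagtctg
Hsd17b7, chr1:169969206-169969455, - strand: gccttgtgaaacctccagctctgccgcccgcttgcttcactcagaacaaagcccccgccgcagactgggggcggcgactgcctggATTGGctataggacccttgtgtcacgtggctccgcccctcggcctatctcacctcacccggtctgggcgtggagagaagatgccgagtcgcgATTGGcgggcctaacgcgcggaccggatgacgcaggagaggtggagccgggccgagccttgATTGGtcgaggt
Insig1, chr5:28071162-28071411, + strand: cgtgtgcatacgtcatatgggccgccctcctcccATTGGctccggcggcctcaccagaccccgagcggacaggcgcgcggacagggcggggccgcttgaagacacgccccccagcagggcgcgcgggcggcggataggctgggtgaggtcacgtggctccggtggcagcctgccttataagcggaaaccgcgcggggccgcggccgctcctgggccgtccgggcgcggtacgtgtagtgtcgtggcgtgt
Fasn, chr11:120824548-120824797, - strand: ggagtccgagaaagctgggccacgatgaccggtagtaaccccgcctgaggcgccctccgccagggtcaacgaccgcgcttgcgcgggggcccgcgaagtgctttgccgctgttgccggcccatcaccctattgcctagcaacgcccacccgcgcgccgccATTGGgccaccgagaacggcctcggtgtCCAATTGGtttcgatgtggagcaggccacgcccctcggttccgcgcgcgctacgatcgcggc
Elovl6, chr3:129532136-129532385, + strand: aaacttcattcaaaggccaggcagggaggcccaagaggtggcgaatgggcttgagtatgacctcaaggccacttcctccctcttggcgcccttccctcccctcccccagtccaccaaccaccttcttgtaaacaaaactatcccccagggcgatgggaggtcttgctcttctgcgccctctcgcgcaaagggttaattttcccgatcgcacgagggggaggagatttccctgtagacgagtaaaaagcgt

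In 2 of the nicotine prostates, those of mice 1 and 3, Chga (chromogranin A, a neuroendocrine granule protein) lay above 9, at 11.7 and 11.3, against 7.07 to 7.73 in the other 8. The 9 measured neuroendocrine markers, which include Chga itself, averaged 9.69 in nicotine 1 and 10.5 in nicotine 3, and at most 7.48 elsewhere. Luminal prostate markers were low in nicotine 3, with a mean of 7.94 over 8 genes and probasin (Pbsn) at 5.08. Water mice averaged 11.6 to 11.8 over these 8 genes, and nicotine 1 averaged 11.1. Proliferation markers averaged 10.8 and 11.3 in these mice, 9.98 to 10.05 in the other 3 nicotine mice and 9.52 to 9.73 in water mice. Results are therefore given for all 10 mice and for the 8 without these arrays. Skeletal muscle markers averaged 10.5 in nicotine 1, against 7.57 to 7.74 in water mice. There 7 of 7 lay above every water mouse, against 34.1% of all tested genes. Fibroblast markers averaged 8.26 to 9.46 in nicotine mice and 9.81 to 10.2 in water mice, and macrophage markers 7.67 to 8.25 and 8.28 to 9.10. Seminal vesicle markers also varied, from 5.90 to 13.2, and were high in water mice 3, 4 and 5 and nicotine 5.

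The question put to the data was whether synthesis genes differ between prostates of nicotine and water mice. Over all 10 mice, 24 of the 31 measured genes were higher with nicotine and 7 were lower, with a median log2 difference, nicotine minus water, of 0.22; over the 14953 genes tested, 50.7% were higher and the median was 0.0039. None passed: by limma with Benjamini-Hochberg adjustment, 0 of 31 had an adjusted p under 0.05, as did 0% of all tested genes, and the members' adjusted p ran from 0.458 to 0.867. At an unadjusted p under 0.05, 9 members were higher, against 4.28% of the tested genes, and 0 were lower, against 5.84%. In the 8 mice without high Chga, 29 members were higher and 2 lower, with a median of 0.18 against 0.0095 over all tested genes, of which 53.5% were higher. There, 8 members had an unadjusted p under 0.05 in the higher direction, against 6.01% of tested genes, and 0 in the lower, against 8.69%; again 0 passed after adjustment, against 0% of the tested genes. These members and branches were chosen with earlier results of these data known, so the counts describe the genes and carry no test of their own.

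**Figure D1:**
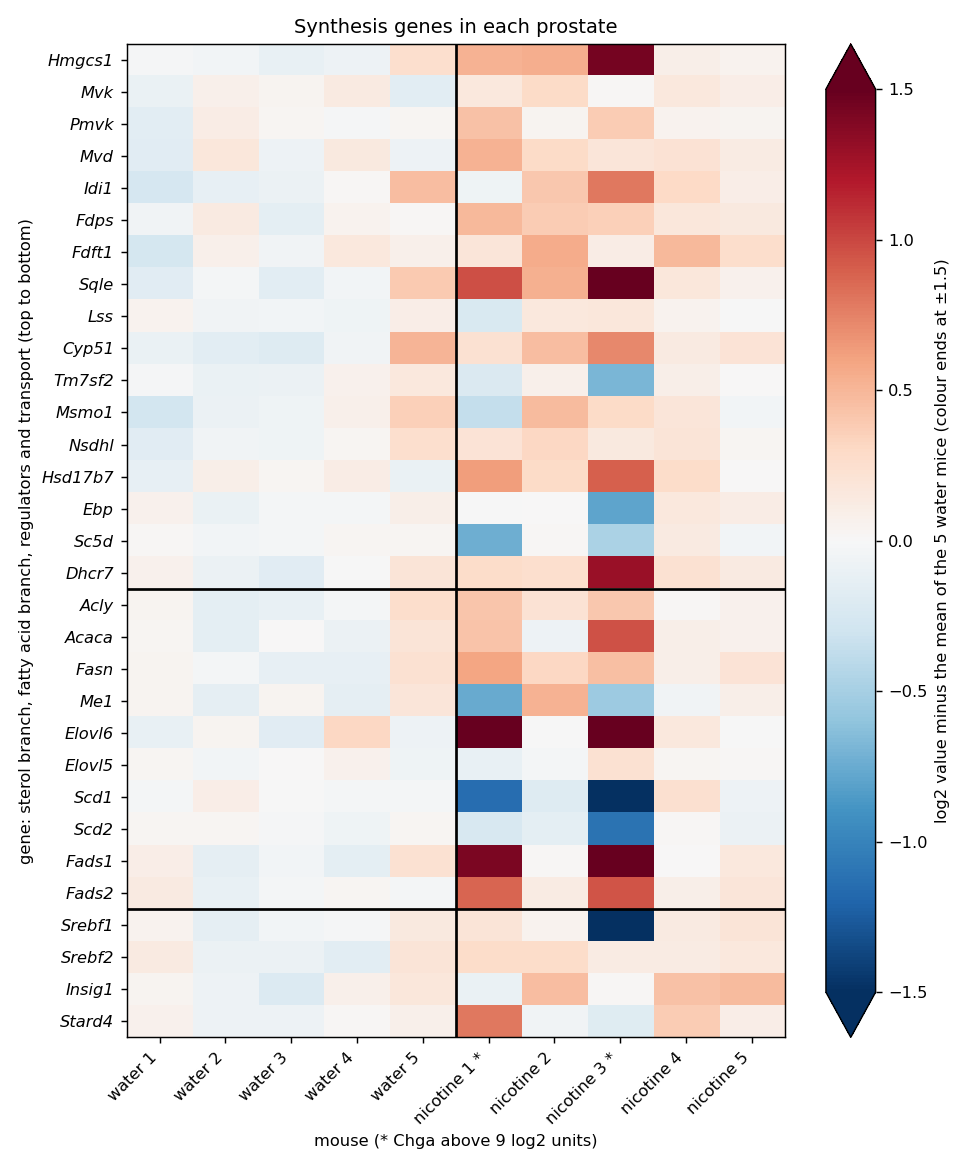
Log2 value of each of the 31 genes (rows) in each of the 10 prostates (columns) minus the mean of the 5 water mice for that gene, with colours ending at 1.5 units either way. Sterol genes are mostly red in nicotine mice, while the fatty acid genes split into strongly red and strongly blue in nicotine mice 1 and 3, the arrays with Chga above 9.

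The sterol branch stood higher in the nicotine mice at most of its steps. Of its 17 measured genes, 14 were higher and 3 lower over all mice, with a median difference of 0.26, or 1.20-fold. In the 8 mice without high Chga, 17 of 17 were higher, with a median of 0.20, or 1.15-fold. Averaged over the 17 genes, and set to 0 at the water mean of each gene, nicotine mice 1 to 5 stood at 0.18, 0.30, 0.37, 0.18 and 0.08 log2 units, and water mice 1 to 5 at -0.10, -0.01, -0.07, 0.03 and 0.15. The groups overlapped through water 5, which lay above nicotine 5. Counted gene by gene, nicotine mice 1 to 5 exceeded every water mouse in 9, 11, 10, 8 and 3 of the 17 genes, where they did so in 34.1%, 23.0%, 38.0%, 15.6% and 17.5% of all tested genes. They lay below every water mouse in 4, 0, 3, 0 and 1 of the 17, against 38.6%, 21.7%, 42.2%, 18.4% and 19.9%. Proliferation markers were high in the same mice, with 8 or 9 of 9 above every water mouse in each nicotine mouse. Fibroblast markers (4 to 6 of 6) and macrophage markers (4 or 5 of 6) lay below every water mouse, against 18.4% to 42.2% of all tested genes. The part of these cell populations in the sterol values was not tested.

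The measured part of the branch begins with Hmgcs1, the cytosolic HMG-CoA synthase, followed by the mevalonate enzymes Mvk, Pmvk and Mvd. Hmgcs1 read 8.40, 8.38, 8.31, 8.35 and 8.68 in water mice 1 to 5, against 8.95, 8.97, 9.85, 8.51 and 8.48 in nicotine mice 1 to 5. Nicotine 3 was the highest by far, and nicotine mice 4 and 5 lay below water 5. The difference was 0.53 ± 0.24 (SE), and 0.23 ± 0.12 in the 8 mice. Mvd, which makes isopentenyl diphosphate, stood at 7.93, 8.27, 8.02, 8.24 and 8.02 in water mice, against 8.61, 8.38, 8.28, 8.31 and 8.22 in nicotine mice. Only nicotine 5 lay within the water range, and the difference of 0.26 ± 0.10 was 0.21 ± 0.09 in the 8 mice. The kinase genes Mvk and Pmvk differed by 0.14 ± 0.08 and 0.19 ± 0.10, and by 0.18 ± 0.08 and 0.04 ± 0.06 in the 8 mice.

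Fdps and Fdft1, of the isoprenoid and squalene steps, were the sterol genes with the smallest unadjusted p by limma over all mice. Fdps, the farnesyl diphosphate synthase, was at 9.37, 9.56, 9.27, 9.48 and 9.45 in water mice, against 9.91, 9.81, 9.78, 9.60 and 9.57 in nicotine mice. It was the 1 member of 31 whose groups did not overlap over all mice, against 2.02% of tested genes not overlapping in the higher direction, with 0 not overlapping in the lower direction, against 2.88%; nicotine 5 and water 2 were nearly level. Its difference was 0.31 ± 0.09 (SE), a fold of 1.24, with a limma adjusted p of 0.458, and 0.24 ± 0.08 in the 8 mice. Fdft1, the squalene synthase that commits farnesyl diphosphate to sterols, was at 10.16, 10.50, 10.37, 10.58 and 10.50 in water mice, against 10.61, 10.98, 10.54, 10.91 and 10.69 in nicotine mice. Nicotine 3 was the lowest of the nicotine mice, below water 4, which is the reverse of its place in Hmgcs1. The difference was 0.32 ± 0.11, and 0.44 ± 0.10 in the 8 mice, a fold of 1.35 with no overlap between the groups and a limma adjusted p of 0.114. A second Fdft1 probe set differed by 0.35, and by 0.40 in the 8 mice. Sqle, the squalene epoxidase, a rate-limiting oxygen-dependent step, read 8.36, 8.51, 8.38, 8.50 and 8.92 in water mice, against 9.50, 9.07, 10.03, 8.71 and 8.60 in nicotine mice. The prostates of nicotine 3 and nicotine 1 were highest, 2.81-fold and 1.95-fold over the water mean. Its difference was 0.65 ± 0.26 over all mice and 0.26 ± 0.14 in the 8. Idi1, the isopentenyl diphosphate isomerase, differed by 0.31 ± 0.18, and by 0.27 ± 0.14 in the 8 mice, and its second probe set by 0.32 over all mice.

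**Figure D2:**
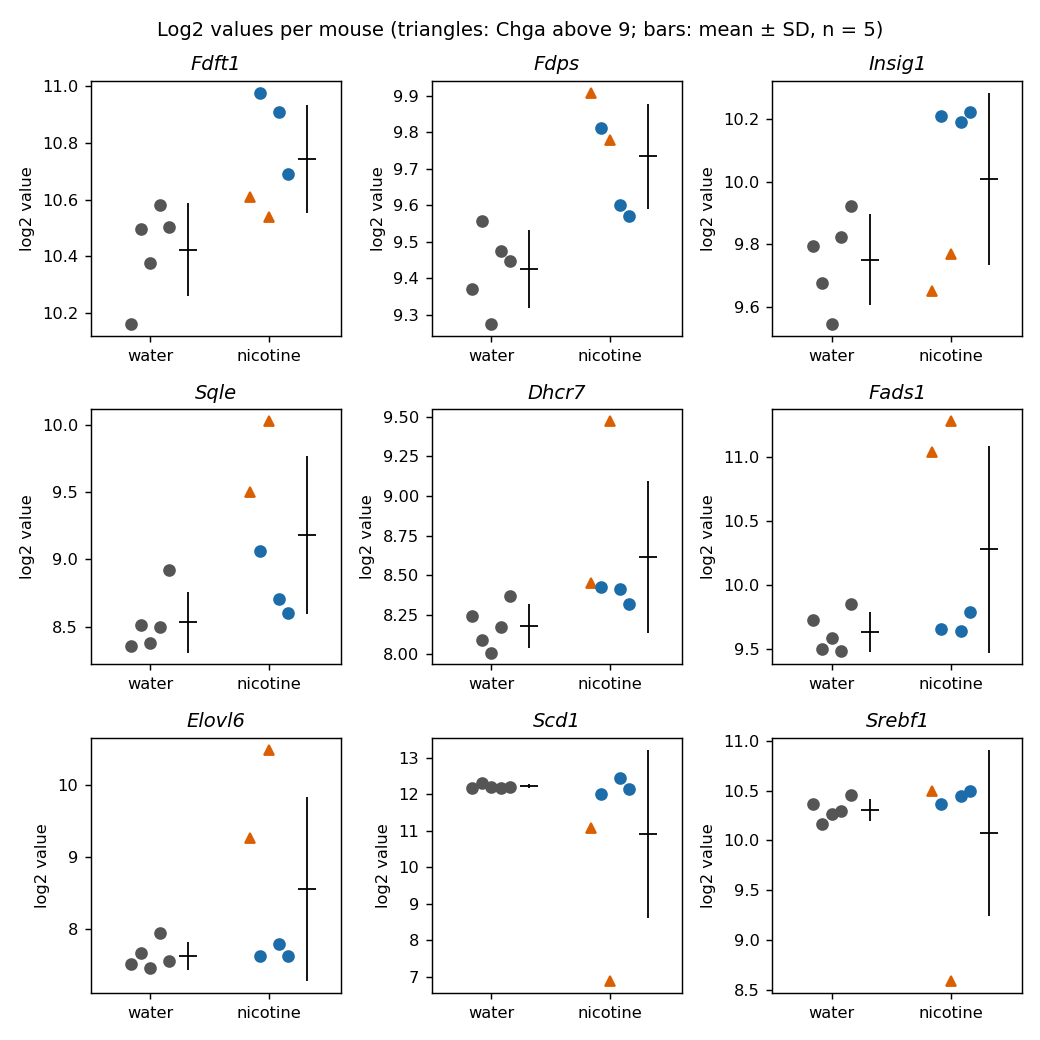
Log2 values of 9 genes in each mouse, with water on the left and nicotine on the right of each panel; triangles mark nicotine mice 1 and 3, whose Chga was above 9, and bars give the mean ± SD of each group (n = 5). In Fdft1 and Insig1 the triangles are the lowest nicotine points, in Sqle, Fads1 and Elovl6 they are the highest, and in Scd1 they are the lowest.

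Among the enzymes that turn lanosterol into cholesterol, the members split. Cyp51, the lanosterol demethylase, stood at 8.26, 8.21, 8.18, 8.31 and 8.87 in water mice, against 8.60, 8.83, 9.09, 8.50 and 8.57 in nicotine mice. Every nicotine mouse was above 4 of the water mice, and water 5 was above 4 of the nicotine mice. Its difference was 0.35 ± 0.16 (SE), and 0.27 ± 0.15 in the 8 mice. Hsd17b7, a ketosteroid reductase of the same route, read 7.96, 8.16, 8.11, 8.19 and 7.98 in water mice, against 8.71, 8.36, 8.97, 8.35 and 8.08 in nicotine mice. Its difference was 0.42 ± 0.15 with nicotine 3 and nicotine 1 on top, and 0.19 ± 0.08 in the 8 mice. Dhcr7, which makes cholesterol from 7-dehydrocholesterol, was at 8.24, 8.09, 8.01, 8.17 and 8.37 in water mice, against 8.45, 8.42, 9.47, 8.41 and 8.32 in nicotine mice. Nicotine 3 stood 2.46-fold over the water mean, and nicotine 5 lay below the highest water mouse. Dhcr7 differed by 0.44 ± 0.21, and by 0.21 ± 0.08 in the 8 mice.

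Both genes with the most negative differences of the branch also act late in it. Sc5d, the lathosterol desaturase, read 10.08, 10.02, 10.03, 10.10 and 10.10 in water mice, against 9.33, 10.08, 9.59, 10.20 and 10.02 in nicotine mice. Tm7sf2, a sterol reductase, read 8.55, 8.47, 8.48, 8.63 and 8.72 in water mice, against 8.36, 8.64, 7.89, 8.66 and 8.57 in nicotine mice. In each gene nicotine mice 1 and 3 lay below every water mouse. The other 3 nicotine mice were within or above the water range, but for nicotine 5 in Sc5d, level with the lowest water mouse. The differences of -0.22 ± 0.16 (SE) for Sc5d and -0.15 ± 0.15 for Tm7sf2 had the opposite sign in the 8 mice, at 0.04 ± 0.06 and 0.05 ± 0.07. Ebp, the sterol isomerase, behaved likewise in nicotine 3 (9.39, against 10.09 to 10.28 in water mice) and differed by -0.10 ± 0.17, and by 0.09 ± 0.06 in the 8 mice. Nsdhl, Msmo1 and Lss, which encode sterol dehydrogenase, methyl sterol oxidase and lanosterol synthase, differed by 0.18 ± 0.09, 0.11 ± 0.17 and 0.03 ± 0.09 over all mice and by 0.18 ± 0.10, 0.20 ± 0.14 and 0.07 ± 0.06 in the 8. The Msmo1 difference was 0.02 without nicotine 2 and 0.23 without nicotine 1.

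The fatty acid branch was nearly level in the 8 mice and spread in opposing directions in the 2 prostates with high Chga. Of its 10 genes, 7 were higher and 3 lower over all mice, with a median difference of 0.26, which was 0.15 without nicotine 3 and 0.06 in the 8 mice, where 8 were higher and 2 lower. Set to 0 at the water mean, the branch average was 0.31, 0.07, 0.05, 0.07 and 0.06 in nicotine mice 1 to 5 and 0.03, -0.06, -0.04, -0.02 and 0.09 in water mice 1 to 5. Nicotine 3, close to the others in that average, had 7 of the 10 genes above every water mouse and the other 3 below every one. In nicotine 1, the prostate with the high skeletal muscle markers, these counts were 6 above and 4 below; the part of muscle in its values was not tested. The same mice had 38.0% and 34.1% of all tested genes above and 42.2% and 38.6% below every water mouse.

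Acly, Acaca and Fasn make palmitate from citrate-derived acetyl-CoA. Fasn, the fatty acid synthase, was at 10.36, 10.28, 10.20, 10.20 and 10.55 in water mice, against 10.90, 10.62, 10.77, 10.41 and 10.52 in nicotine mice. Of the water mice only water 5 lay inside the nicotine range, and the difference was 0.33 ± 0.11 (SE), and 0.20 ± 0.09 in the 8 mice. Acly, the ATP citrate lyase, read 9.89, 9.71, 9.75, 9.83 and 10.12 in water mice, against 10.27, 10.07, 10.27, 9.87 and 9.92 in nicotine mice, a difference of 0.22 ± 0.11, and 0.10 ± 0.09 in the 8. Acaca, the acetyl-CoA carboxylase, differed by 0.29 ± 0.18, and by 0.03 ± 0.08 in the 8. Me1, the malic enzyme that supplies NADPH, was lower in nicotine 1 (8.10) and nicotine 3 (8.32) than in any water mouse (8.72 to 9.04), and its difference of -0.15 ± 0.22 was 0.18 ± 0.12 in the 8 mice.

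Elongation and desaturation genes showed the widest spread among the nicotine mice. Elovl6, the elongase of palmitate, read 7.52, 7.67, 7.46, 7.94 and 7.55 in water mice, against 9.27, 7.62, 10.50, 7.78 and 7.62 in nicotine mice. Nicotine 3 and nicotine 1 were 7.34-fold and 3.12-fold over the water mean, and the other 3 nicotine mice lay within the water range. The difference of 0.93 ± 0.53 (SE) was 0.05 in the 8 mice, with a 95% interval from -0.18 to 0.28. Fads1, the delta-5 desaturase of polyunsaturated fatty acids, read 9.73, 9.50, 9.59, 9.49 and 9.86 in water mice, against 11.04, 9.65, 11.28, 9.64 and 9.79 in nicotine mice. Its neighbour Fads2, the delta-6 desaturase, was at 10.40, 10.16, 10.25, 10.30 and 10.24 in water mice, against 11.14, 10.39, 11.22, 10.36 and 10.45 in nicotine mice. For each of these desaturases nicotine mice 1 and 3 stood apart above the rest, 2.65-fold and 3.15-fold over the water mean in Fads1. The differences were 0.65 ± 0.34 and 0.44 ± 0.18 over all mice, and 0.06 ± 0.09 and 0.13 ± 0.06 in the 8. Elovl5, which elongates polyunsaturated chains, differed by 0.03 ± 0.07, and by 0.0048 ± 0.05 in the 8.

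The delta-9 desaturases, which make oleate, went the other way in the same prostates. Scd1 was at 12.17, 12.31, 12.20, 12.18 and 12.18 in water mice, against 11.07, 12.01, 6.87, 12.45 and 12.13 in nicotine mice. Nicotine 3 lay 40.4-fold and nicotine 1 2.21-fold below the water mean, and nicotine 4 was the highest of all 10 mice. Scd2 was at 12.64, 12.64, 12.59, 12.54 and 12.64 in water mice, against 12.37, 12.47, 11.50, 12.63 and 12.52 in nicotine mice, with nicotine 3 2.15-fold below the water mean. Differences were -1.30 ± 0.94 (SE) for Scd1 and -0.31 ± 0.19 for Scd2, and in the 8 mice -0.01 (95% interval -0.21 to 0.19) and -0.07 (-0.20 to 0.05). The low Scd1 of nicotine 3 came with the low luminal markers given above, whose part in it was not tested. In nicotine 4, adipocyte markers averaged 8.72 over 8 genes, against 7.69 to 7.93 in water mice. Of these, 8 of 8 lay above every water mouse, against 15.6% of all tested genes. Adipoq was at 7.82 against at most 6.77. The part of fat in the Scd1 value of nicotine 4 was not tested.

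**Figure D3:**
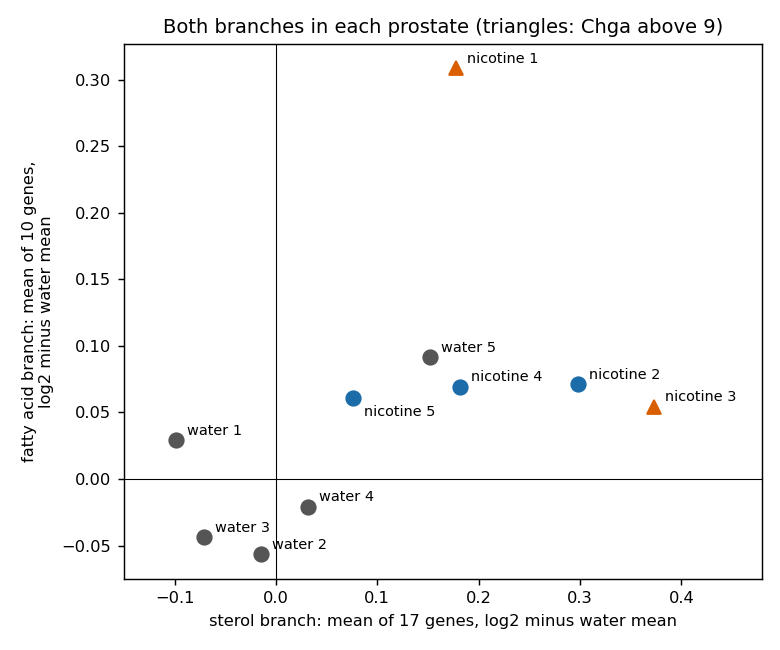
Mean of the 17 sterol genes (horizontal axis) against the mean of the 10 fatty acid genes (vertical axis) in each mouse, in log2 units from the water mean of each gene; triangles are nicotine mice 1 and 3. Nicotine 3 has the highest sterol value (0.37) with a fatty acid value of 0.05, and nicotine 1 the highest fatty acid value (0.31). By medians over the fatty acid genes, which are not drawn, nicotine 3 stands at 0.43 and nicotine 1 at 0.42.

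Set against each other, the branches did not keep step among the nicotine mice. The sterol average minus the fatty acid average, each from its water mean, was -0.13, 0.23, 0.32, 0.11 and 0.02 in nicotine mice 1 to 5 and -0.13, 0.04, -0.03, 0.05 and 0.06 in water mice 1 to 5. Nicotine mice 2, 3 and 4 lay above every water mouse in this gap, and nicotine 5 and nicotine 1 did not. The gap carries no test. The fatty acid average of nicotine 3 includes Scd1, at -5.34 from its water mean. By medians over the genes, nicotine 3 stood at 0.29 in the sterol branch and 0.43 in the fatty acid branch, the reverse order. In nicotine mice 2 and 4 the sterol median stayed the higher, at 0.29 and 0.17 against 0.0079 and 0.06.

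The regulators differed in which mice were high. Insig1, the sterol-sensing anchor that retains SREBPs and is itself an SREBP target, was at 9.79, 9.67, 9.54, 9.82 and 9.92 in water mice, against 9.65, 10.21, 9.77, 10.19 and 10.22 in nicotine mice. Nicotine mice 2, 4 and 5 lay close together and above every water mouse, while nicotine mice 1 and 3 were within the water range. The difference was 0.26 ± 0.13 (SE), with a limma adjusted p of 0.458, and 0.46 ± 0.08 in the 8 mice, a fold of 1.37 (95% interval of the log2 difference 0.28 to 0.63), with a limma adjusted p of 0.0711, the smallest of the 31 members there. Srebf2 read 10.30, 10.07, 10.08, 10.01 and 10.36 in water mice, against 10.44, 10.43, 10.29, 10.29 and 10.33 in nicotine mice. Water mice 1 and 5 lay within the nicotine range and the other 3 below it, for a difference of 0.19 ± 0.08, the same in the 8 mice (0.19 ± 0.09).

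Srebf1 read 10.36, 10.17, 10.26, 10.29 and 10.46 in water mice, against 10.50, 10.36, 8.58, 10.45 and 10.50 in nicotine mice. Nicotine 3 alone was low, 3.31-fold below the water mean, and nicotine 1, the other prostate with high Chga, was among the highest. The difference of -0.23 ± 0.34 (SE) was 0.13 ± 0.07 in the 8 mice. Stard4, a cytosolic sterol carrier, was at 8.45, 8.31, 8.31, 8.40 and 8.47 in water mice, against 9.17, 8.33, 8.20, 8.77 and 8.49 in nicotine mice, with nicotine mice 1 and 4 highest. Its difference was 0.21 ± 0.17 over all mice, 0.06 without nicotine 1 and 0.14 ± 0.09 in the 8 mice. In the 8 mice, Insig1, Fdft1 and Fdps were the 3 members whose groups did not overlap, against 4.12% of tested genes in the higher direction.

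Limma's array weights lower the influence of arrays that depart from the rest. With them, 3 of the 31 members were called higher with nicotine at an adjusted p under 0.05, against 2.84% of the tested genes. In the lower direction 0 members were called, against 4.49%. Insig1 differed by 0.51 (adjusted p = 0.00989), Fdft1 by 0.36 (adjusted p = 0.0268) and Fasn by 0.26 (adjusted p = 0.0432). Over the 22 alternatives run, their adjusted p reached 0.859, and these calls were made with the weights alone.

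**Figure D4:**
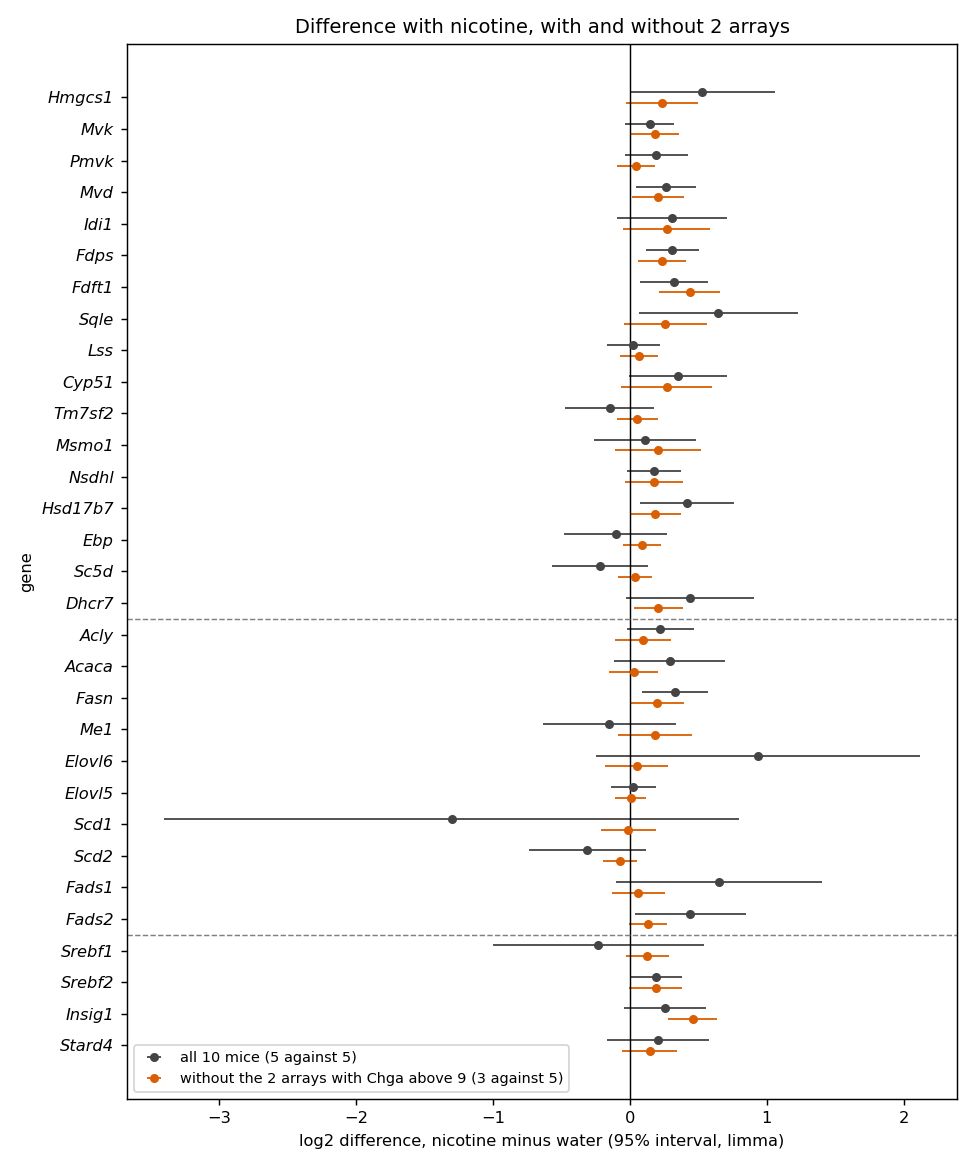
Log2 difference, nicotine minus water, of each of the 31 genes with its 95% interval from limma, over all 10 mice (grey) and over the 8 mice without Chga above 9 (orange). The intervals of Scd1 and Elovl6 shrink most when nicotine mice 1 and 3 are left out, and Insig1 and Fdft1 are larger in the 8 mice than in all 10.

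Other genes of the pathway were taken in lists that hold no member, and 0 of them passed after adjustment by limma without array weights. With limma's array weights, Mid1ip1 was called higher (0.22, adjusted p = 0.0402) and Lipa lower (-0.30, adjusted p = 0.0495). That fit called 2.84% of the tested genes higher and 4.49% lower. Of 16 other synthesis enzymes and their cofactors tested, 8 were higher and 8 lower, with a median of -0.01, and 1 had an unadjusted p under 0.05, against 10.1% of the tested genes in either direction. Those with the smallest p were Mid1ip1, an activator of acetyl-CoA carboxylase, at 0.24 ± 0.08 (SE), with every nicotine mouse above every water mouse, as in 2.02% of the tested genes, then Thrsp at 0.49 ± 0.22, Gpam, which starts glycerolipid synthesis, at -0.44 ± 0.21, and Acacb at 0.15 ± 0.07. In the 8 mice these differences were 0.18 ± 0.07, 0.48 ± 0.25, -0.11 ± 0.06 and 0.10 ± 0.06. For Mid1ip1, nicotine 4 and water 3 were nearly level, both at 9.26. Thrsp was at 7.69 in nicotine 4, the prostate with the high adipocyte markers, and differed by 0.29 ± 0.14 without it. In nicotine 3, 9 of these 16 genes lay above every water mouse and 6 below, against 38.0% and 42.2% of all tested genes. For nicotine 1 the counts were 5 and 7, against 34.1% and 38.6%. Elovl4 stood 6.92-fold over the water mean in nicotine 3, and Elovl7 6.41-fold below it. In the 8 mice Elovl4 differed by 0.02 and Elovl7 by -0.05. Of 6 tested genes that process SREBPs or turn over their partners, 2 were higher and 4 lower, with a median of -0.22, and -0.02 in the 8 mice. Erlin1 differed by -0.57 ± 0.26, Insig2 by -0.20 ± 0.11, the site-1 protease gene Mbtps1 by -0.23 ± 0.15 and Rnf145 by 0.12 ± 0.10. In the 8 mice they differed by less, at -0.16 ± 0.06, -0.02 ± 0.06, -0.07 ± 0.06 and -0.02 ± 0.07, with the sign of Rnf145 turned.

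Of 5 sterol uptake and transport genes, 2 were higher and 3 lower, the smallest p being that of Lipa, the lysosomal acid lipase that frees cholesterol from its esters. Lipa differed by -0.25 ± 0.10 (SE), and by -0.27 ± 0.11 in the 8 mice; Npc2, Lrp8 and Scarb1 differed by -0.26 ± 0.16, 0.60 ± 0.45 and -0.27 ± 0.22 over all mice and by -0.03 ± 0.05, -0.07 ± 0.07 and 0.07 ± 0.06 in the 8, so that Lrp8 and Scarb1 turned sign. Among 6 genes of the sterol-sensing LXR receptors and their targets, 2 were higher and 4 lower. The cholesterol exporter Abca1 differed by -0.51 ± 0.30, and in the 8 mice by -0.31 ± 0.11, where its groups did not overlap, against 6.47% of tested genes in the lower direction; Mylip, Lpcat3 and Abcg1 differed by -0.68 ± 0.46, -0.47 ± 0.35 and 0.50 ± 0.41. Those last 3 stood at -0.09 ± 0.09, 0.0069 ± 0.07 and -0.11 ± 0.08 in the 8 mice, Lpcat3 and Abcg1 with the sign turned; Abcg1 was at 10.7 in nicotine 1. Like Lipa and Abca1, macrophage markers (6 of 6 lower, median -0.82, and -0.56 in the 8 mice) were lower with nicotine. So were fibroblast markers (6 of 6 lower, median -0.78, and -0.58 in the 8). Macrophage and fibroblast markers were lowest in nicotine 3, averaging 7.67 and 8.26. Among the nicotine mice Lipa was highest there, at 8.71. Abca1 was lowest there, at 8.62, and highest in nicotine 1, at 10.45. The part of these cell populations in Lipa and Abca1 was not tested. Of 11 fatty acid oxidation genes, 2 were higher and 9 lower, with a median of -0.25, and in the 8 mice 8 were higher and 3 lower, with a median of 0.03. The acyl-CoA dehydrogenase gene Acadm differed by -0.35 ± 0.19, Hadhb by -0.25 ± 0.15, Ehhadh by -0.52 ± 0.33 and the fatty acid receptor gene Ppara by -0.29 ± 0.19; in the 8 mice these were -0.04 ± 0.07, -0.07 ± 0.07, 0.0083 ± 0.08 and 0.0076 ± 0.08. All 11 lay below every water mouse in nicotine 3, against 42.2% of the tested genes. There 10 of the 17 sterol genes and 7 of the 10 fatty acid synthesis genes lay above every water mouse, against 38.0%.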

How the data were processed

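The authors deposited 1 table of log2 values for 35556 probe sets and 10 single-colour arrays. How background, summarisation and normalization were handled is not given in the sources available; the log2 scale was read from the range, 3.59 to 14.1, and array medians were 7.50 to 7.57. Genes were named from 21789 probe sets with 1 symbol in the platform annotation; 1621 had several and 12146 were unnamed there. Of the 31 members found, 31 matched a RefSeq gene by Entrez identifier, with 0 symbols changed. A filter removed the dimmest 25% of genes, with means below 6.55, and all 31 members found passed. Nicotine was compared with water by limma 3.58.1 in R 4.3.3 (lmFit, eBayes, two-sided), with Benjamini-Hochberg adjustment over 14953 genes and a threshold of 0.05; the steps were tested on simulated data. SEs and 95% intervals are those of this fit. Members, branches and lists were chosen with earlier results of these data known. Values per mouse are given for the 12 members with the smallest p, the 4 regulators or carriers and the 2 most negative and 2 most positive of each branch, and up to 4 genes with the smallest p are named from each other list. Elovl4 and Elovl7 are named besides, for their spread. Some genes of the lists are not analysed here. The alternatives were 2 other filters, 2 other probe set rules, quantile normalization again, median centring, array weights, eBayes with a trend and robust, a block for the mouse number, a seminal vesicle or first principal component covariate, and leaving out mice. No batch could be checked, since scan dates were not used here. The RefSeq promoter table served for sequences.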

Additional observations from a re-analysis of the deposited data

Results flagged for a closer look

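Within groups of 5 mice, 10 values stood apart from the rest of their group, in that the gap to the nearest mouse took more than 0.71 of the range of the group; 66 groups were looked at, and chance gives about 5% of them. In the nicotine group, nicotine 3 was the lowest for Srebf1 (gap 0.931 of the range), Ebp (0.831), Scd2 (0.772) and Scd1 (0.752) and the highest for Dhcr7 (0.882). Nicotine 1 was the highest in the mean of the fatty acid branch (0.933), at 0.31 log2 units over the water mean, with nicotine 2 next at 0.07. By the median over the genes of this branch, nicotine 3 stood at 0.43 and nicotine 1 at 0.42. In the water group, water 5 was the highest for the sterol genes Cyp51 (0.811), Hmgcs1 (0.752) and Sqle (0.732), and water 2 the highest for Scd1 (0.794).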

How the results depend on the processing

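Over 22 alternatives, 23 of the 31 members kept the sign of their difference in each, and 8 did not. With array weights, 1096 genes (425 higher and 671 lower) and 3 members passed; the other 21 alternatives gave 0 genes. The sterol median was 0.134 with array weights and 0.186 to 0.301 with each mouse left out. The fatty acid median was 0.104 with array weights, 0.109 with the first principal component as a covariate, 0.0557 without the arrays with Chga above 9, and 0.151 to 0.314 with each mouse left out, 0.151 being without nicotine 3. Signs turned with array weights for Tm7sf2 (0.0514), Ebp (0.108), Me1 (0.151) and Srebf1 (0.163). With the principal component they turned for Tm7sf2 (0.0718), Ebp (0.147), Me1 (0.0959), Elovl5 (-0.0303), Scd1 (0.225) and Srebf1 (0.281). Without the arrays with high Chga they turned for Tm7sf2 (0.0548), Ebp (0.0914), Sc5d (0.0367), Me1 (0.182) and Srebf1 (0.127). With 1 mouse left out, differences ran from -0.317 to 0.0015 for Me1, -0.009 to 0.0904 for Lss, -0.171 to 0.0677 for Ebp, -0.0256 to 0.0616 for Elovl5 and -0.336 to 0.143 for Srebf1. The cause was not tested. With the mouse number as a replicate block, 0 genes passed and 1005 had an unadjusted p under 0.05, against 1514 without it; same-numbered mice correlated at -0.129 to 0.164 in their deviations, 1 of 5 water mice correlated best with its own number, and nothing in the labels ties the numbers together. The median over all genes was 0.034 with quantile normalization again and 0.0394 with median centring, against 0.0039.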
